A study of Rattus norvegicus with 17 samples.

Results

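Fibronectin and 9 integrin subunits were followed through the livers of rats with a ligated bile duct, with and without ghrelin. The 10 genes were Fn1, Itga5, Itgb1, Itgav, Itgb5, Itgb6, Itga1, Itga6, Itgb4 and Itgb8, and they were read through every probe set annotated to exactly 1 of these symbols. Of the 10 symbols 9 had a probe set, giving 17 of the 31042 probe sets that are not controls. Itgb8, the subunit that pairs with αv to form a receptor of latent TGF-β, had none and has no value here. Of the 17 probe sets 15 passed the filter on dim signal, which left 15965 probe sets and 9736 genes in all. The filter kept a probe set with at least 5 arrays above an intensity of 15.5, which is 3.95 in log2 units. Another Itgb5 probe set (1396133_at) and another of Itga6 (1371185_at) lay below that level on every array and were left out.

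Liver RNA from 17 rats was hybridised to Affymetrix Rat Genome 230 2.0 arrays, with 1 rat per array. In the sham group, 6 rats had the abdomen opened only and were infused with saline. In the ligated saline group the bile duct of 6 rats was tied off under the same infusion, and in the ligated ghrelin group 5 rats with a tied bile duct were infused with ghrelin, 10 µg/kg/day. All 3 groups carried an osmotic minipump under the skin, were operated on at week 7 and gave their liver at week 9. No group here received ghrelin without ligation, and the strain and sex of the rats are not given in the labels used here. Bile duct ligation stops bile flow and leads to proliferation of bile ducts and to portal fibrosis. Ghrelin is a peptide hormone of the stomach that acts on the growth hormone secretagogue receptor.

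Fibronectin is a large glycoprotein of plasma and of the extracellular matrix. Hepatocytes secrete the plasma form in large amounts, while stellate cells, myofibroblasts and other cells lay down a cellular form that carries extra domains through alternative splicing. Integrins are receptors made of 1 α and 1 β chain that hold cells to the matrix and pull fibronectin into fibrils. Most of them share the β1 chain or the αv chain, and in cholestatic liver αvβ6 is known as a receptor of bile duct epithelium that releases active TGF-β from its latent complex.

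Promoters of 3 of the 7 members with an entry are shown (Fn1, Itga6 and Itgb4 have no entry). Itga5 was the member called with ghrelin, and Itgb1 and Itgb6 rose with ligation. Each is the stretch from 250 bases before to 50 bases after the start of the gene in RefSeq on the rat assembly GRCr8, 5′ to 3′ on the strand of the gene. Capitals mark matches on either strand to GGGCGG, the core of a GC box bound by SP1-type factors. Itga5 lies at chr7:136381256-136381555 on the minus strand, Itgb1 at chr19:73602027-73602326 on the plus strand and Itgb6 at chr3:65530284-65530583 on the minus strand.
Itga5: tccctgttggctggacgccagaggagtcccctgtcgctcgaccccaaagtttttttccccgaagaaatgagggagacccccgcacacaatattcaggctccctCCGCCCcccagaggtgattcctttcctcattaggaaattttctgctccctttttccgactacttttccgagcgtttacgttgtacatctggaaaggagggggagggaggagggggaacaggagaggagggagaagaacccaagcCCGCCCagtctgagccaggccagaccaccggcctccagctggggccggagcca
Itgb1: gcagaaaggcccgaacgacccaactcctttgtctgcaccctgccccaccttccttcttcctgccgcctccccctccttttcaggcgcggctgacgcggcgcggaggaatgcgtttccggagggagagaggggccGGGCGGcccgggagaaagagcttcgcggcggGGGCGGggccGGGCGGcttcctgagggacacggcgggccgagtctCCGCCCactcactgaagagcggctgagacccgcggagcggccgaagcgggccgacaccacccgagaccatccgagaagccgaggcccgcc
Itgb6: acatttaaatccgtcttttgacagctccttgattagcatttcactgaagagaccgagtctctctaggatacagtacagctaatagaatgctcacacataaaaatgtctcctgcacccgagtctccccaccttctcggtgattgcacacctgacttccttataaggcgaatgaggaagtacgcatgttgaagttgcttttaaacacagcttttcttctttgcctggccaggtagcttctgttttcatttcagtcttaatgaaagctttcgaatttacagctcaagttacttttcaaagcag
The Itgb1 stretch held 4 matches and the Itga5 stretch 2, while the Itgb6 stretch had none. GC content was 71.7% for Itgb1, 58.7% for Itga5 and 41.7% for Itgb6, against a median of 51.7% over 33469 promoters of the same length. The Itgb1 stretch held 35 CpG dinucleotides, the Itga5 stretch 13 and the Itgb6 stretch 7, which is the median of all promoters. Of the promoters of the other members with an entry, Itgav had 2 GC box matches, Itgb8 had 1, and Itgb5 and Itga1 had none. A GC box match was present in 33.1% of all promoters. The AP-1 type motif TGANTCA, present in 7.33% of all promoters, the ETS type motif CCGGAAGT in 3.81% and the TATA box type motif TATAAA in 14.2% were searched on both strands too, and none of the 7 members with an entry held a match. These letters describe the windows only and were not set against any binding data.

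The median intensity of an array was 14.2 to 14.7 in the sham group and 15.4 to 17.5 in the ligated groups. Across probe sets, arrays of a group correlated at 0.988 to 0.995, and no pair of arrays held identical values. As a reading of RNA integrity, the beta-actin control signal at the 3' end minus that at the 5' end ran from 1.86 to 2.37 log2 units in sham rats, from 1.75 to 2.05 in ligated saline rats and from 1.88 to 2.62 in ligated ghrelin rats. Setting the array medians equal moved the median change with ligation over all probe sets from 0.04 to -0.15 log2 units, and quantile normalization moved it to -0.11, so small changes below are relative to the scaling of the deposited values. Probe sets differ in how strongly they bind, so the level of 1 gene is not set against that of another. In bulk liver, a change in the number of cells of a type and a change in RNA per cell cannot be told apart.

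After 2 weeks of ligation, 6 of the 9 measured members had at least 1 probe set that was higher than in sham liver, and none had a probe set that was lower. Itgav counted only through its 2 dimmer probe sets. By their brightest probe set, 5 of the 9 were higher and none was lower. Over all 9736 genes, 37.5% were higher, 27.2% lower and 64.7% called. In probe sets, 11 of 15 were higher by limma at a Benjamini-Hochberg adjusted p under 0.05, where 34.2% of all 15965 probe sets were higher and 27.3% lower (61.5% in all). The 3 members with no call were fibronectin itself, the α5 chain of its main receptor and the α1 chain of a collagen receptor. The groups did not overlap for 7 of the 15 probe sets, all of them higher, where this held in that direction for 22.8% of all probe sets. The median change of the 15 probe sets was 1.04 log2 units against 0.04 over all probe sets. Itgb6 and 1 Itga6 probe set (1371186_at) were above the filter level on only 3 of 6 sham arrays, so these passed the filter mainly through the ligated rats and the count is a description only.

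**Figure D1:**
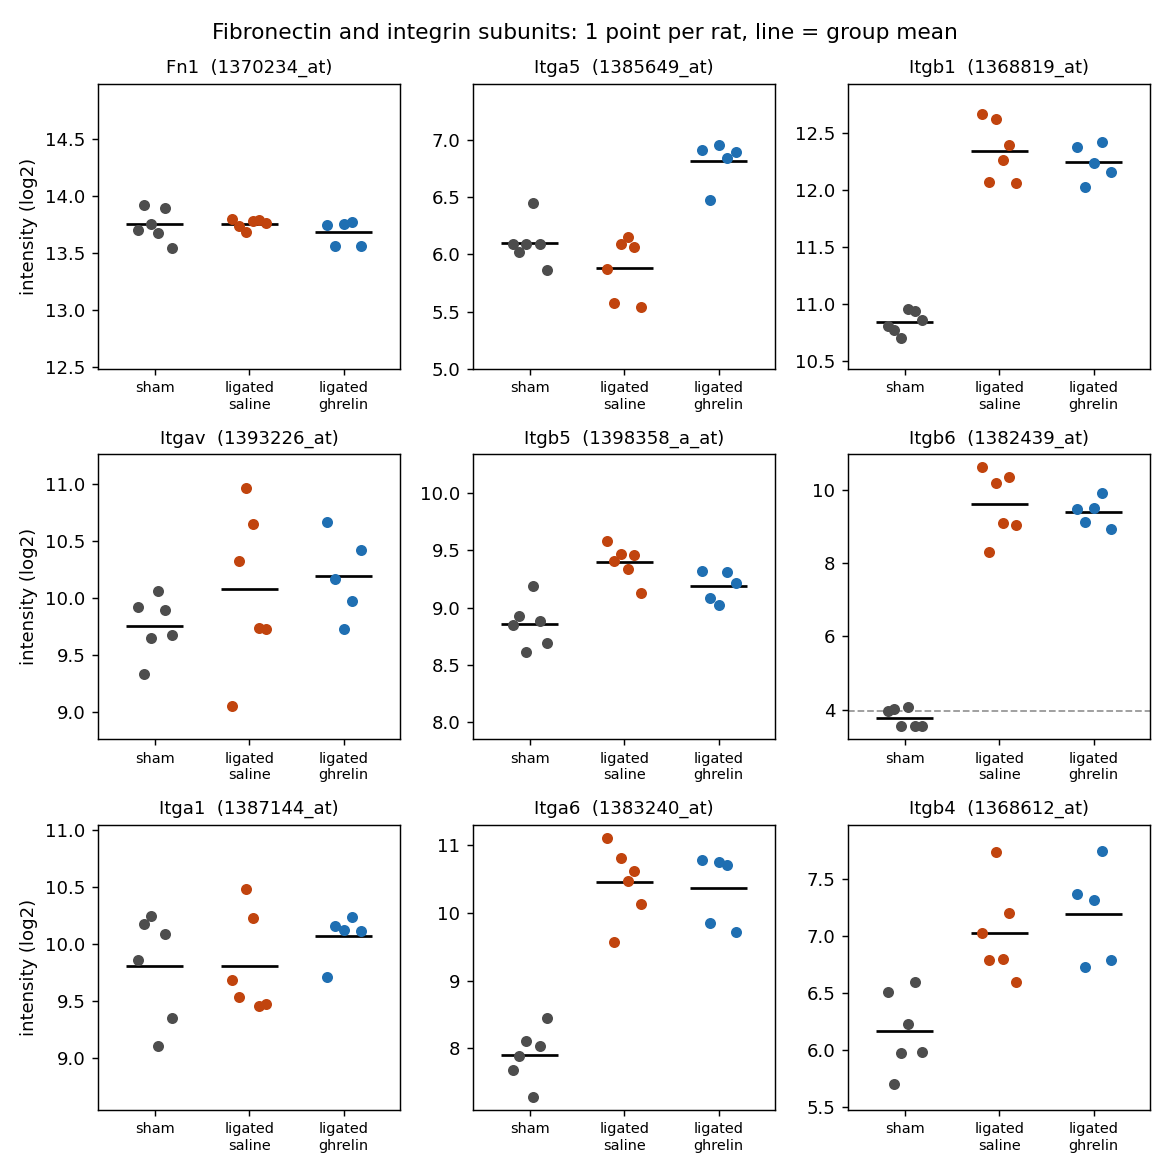
Log2 intensity (y axis) of the brightest probe set of each of the 9 measured members in the sham, ligated saline and ligated ghrelin groups (x axis), with 1 point per rat, a bar at the group mean and a dashed line at the filter level of 3.95 where it falls within the panel. The y axes differ in range. Itgb1, Itgb6, Itga6 and Itgb4 were higher in every ligated rat than in any sham rat, Itga5 was higher in the 5 ligated ghrelin rats than in all others, and Fn1 lay between 13.55 and 13.93 in all 17 rats.

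Fn1 encodes fibronectin, the ligand. Its probe set read 13.55, 13.73 and 13.93 as the lowest, median and highest log2 value in sham rats, and 13.69, 13.77 and 13.80 in ligated saline rats. The 5 ligated ghrelin rats read 13.75, 13.57, 13.76, 13.78 and 13.57. These values overlapped throughout, and they lay below the brightest probe set of the arrays, which reached 15.79 to 15.92. With ligation the change was 0.007 ± 0.072 (SE, n = 6 and 6) with a 95% interval from -0.145 to 0.159 and an adjusted p of 0.939 by limma. The largest change the interval allows is thus small, but a p that misses the threshold does not show that the groups are alike. With ghrelin the change was -0.08 ± 0.08 with an interval from -0.238 to 0.082 and an adjusted p of 0.581. With array medians set equal the ligation change became -0.18 with an adjusted p of 0.0361, so its sign followed the scaling. Whether the probe set separates the plasma form from the cellular form was not tested.

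Genes of 21 other plasma proteins that hepatocytes secrete were measured. With ligation, 3 were higher, 10 were lower and 8 were not called, beside 37.5% higher, 27.2% lower and 64.7% called over all 9736 genes, so the share called lay near that of all genes. Their median change was -0.13 against 0.07 over all genes. Rbp4, the retinol carrier, fell by 0.44 ± 0.07 (adjusted p 3.86e-05). The 3 that rose were Cp, the copper protein ceruloplasmin, by 0.35 ± 0.06 (adjusted p 0.000106), the heme carrier Hpx by 0.12 ± 0.05 (adjusted p 0.0408) and haptoglobin (Hp) by 0.12 ± 0.05 (adjusted p 0.0442). The calls for Hpx and Hp held in 8 and 5 of 20 alternatives (adjusted p up to 0.269 and 0.239), and both turned to -0.07 with array medians set equal. Among genes of hepatocyte identity, 6 of 11 were lower and none higher, including the bile acid importer Slc10a1 at -1.29 ± 0.14 and the asialoglycoprotein receptor chain Asgr2 at -1.09 ± 0.13. The summed intensity of these 11 genes was 224200 to 248100 in sham rats and 194700 to 227500 in ligated saline rats. Its part in the Fn1 value was not tested.

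Itga5 and Itgb1 encode the α5β1 receptor, which binds the RGD and synergy sites of fibronectin and is the main receptor for building fibronectin fibrils. The 2 chains took different courses. Itgb1, whose product pairs with many α chains, rose with ligation in both of its probe sets. Its brighter probe set (1368819_at) read 10.70, 10.84 and 10.96 (lowest, median, highest) in sham rats and 12.07, 12.33 and 12.67 in ligated saline rats, and the ligated ghrelin rats read 12.38, 12.03, 12.24, 12.43 and 12.16. The second (1387346_at) read 9.46 to 9.70 in sham rats, 11.07 to 11.95 in ligated saline rats and 10.66 to 11.40 in ligated ghrelin rats. Every ligated rat lay above every sham rat in both probe sets. The ligation change was 1.51 ± 0.11 (2.84-fold, adjusted p 1.04e-08) for 1368819_at and 1.86 ± 0.15 (3.64-fold, adjusted p 2.76e-08) for 1387346_at.

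Itga5 had 1 probe set. It read 5.87, 6.10 and 6.45 (lowest, median, highest) in sham rats, and 5.54, 5.97 and 6.15 in ligated saline rats. The 5 ligated ghrelin rats read 6.92, 6.47, 6.96, 6.85 and 6.90. Sham replicates 1, 3 and 5 and ligated saline replicate 3 all read the same value, 6.0955. Why these values were equal was not tested, and equal values may narrow the spread behind the SE. Sham and ligated saline rats overlapped, while every ligated ghrelin rat was above every other rat, the lowest of them at 6.47 against the highest sham rat at 6.45. The ligation change was -0.22 ± 0.13 with a 95% interval from -0.491 to 0.049 and an adjusted p of 0.143. Under quantile normalization it was -0.57 (adjusted p 0.000764) and with array medians set equal -0.41 (adjusted p 0.0086), so that Itga5 counted as lower under these scalings.

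With ghrelin, Itga5 was the only member called among 15 probe sets, where 1.32% of all probe sets were higher, 0.908% lower and 2.22% called in all. It was 1.91-fold higher in ligated ghrelin than in ligated saline rats, a change of 0.94 ± 0.13 log2 units (95% interval 0.653 to 1.22, n = 5 and 6, adjusted p 0.0101 by limma). The groups did not overlap, which held upward for 2.39% of all probe sets. Only 3 of the 15965 probe sets had a lower p in this comparison, and 0.407% had a larger increase. Against sham the change was 0.71 ± 0.13 (1.64-fold, adjusted p 0.000292), a comparison that shares its ghrelin arrays with the former. The call against ligated saline held in all alternatives run, with changes from 0.861 to 1.04 and adjusted p from 0.00366 to 0.0304. Itga5 rests on 1 probe set, which read equal values on several arrays without ghrelin, as given above. Its annotated target is an expressed sequence tag, and whether the probe set reads the Itga5 transcript was not tested.

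The partner chain did not move the same way. Itgb1 differed between ligated ghrelin and ligated saline rats by -0.10 ± 0.12 (adjusted p 0.65) in 1368819_at and by -0.45 ± 0.16 (95% interval -0.781 to -0.123, adjusted p 0.113) in 1387346_at. Neither passed over all probe sets. The 2 probe sets reported unequal changes on the same arrays: the value of 1368819_at minus that of 1387346_at fell by 0.358 log2 units from sham to ligated saline and grew by 0.351 from ligated saline to ligated ghrelin. Each shift had p 0.00216 by an exact two-sided permutation test, the smallest the design allows, and 0.0173 after adjustment over 16 such tests. Leaving out 1 array moved the adjusted p to between 0.0173 and 0.0635, where the smallest p that remains is larger. Over the 17 arrays the 2 probe sets still ran together (r = 0.972, across arrays that share the group differences).

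**Figure D2:**
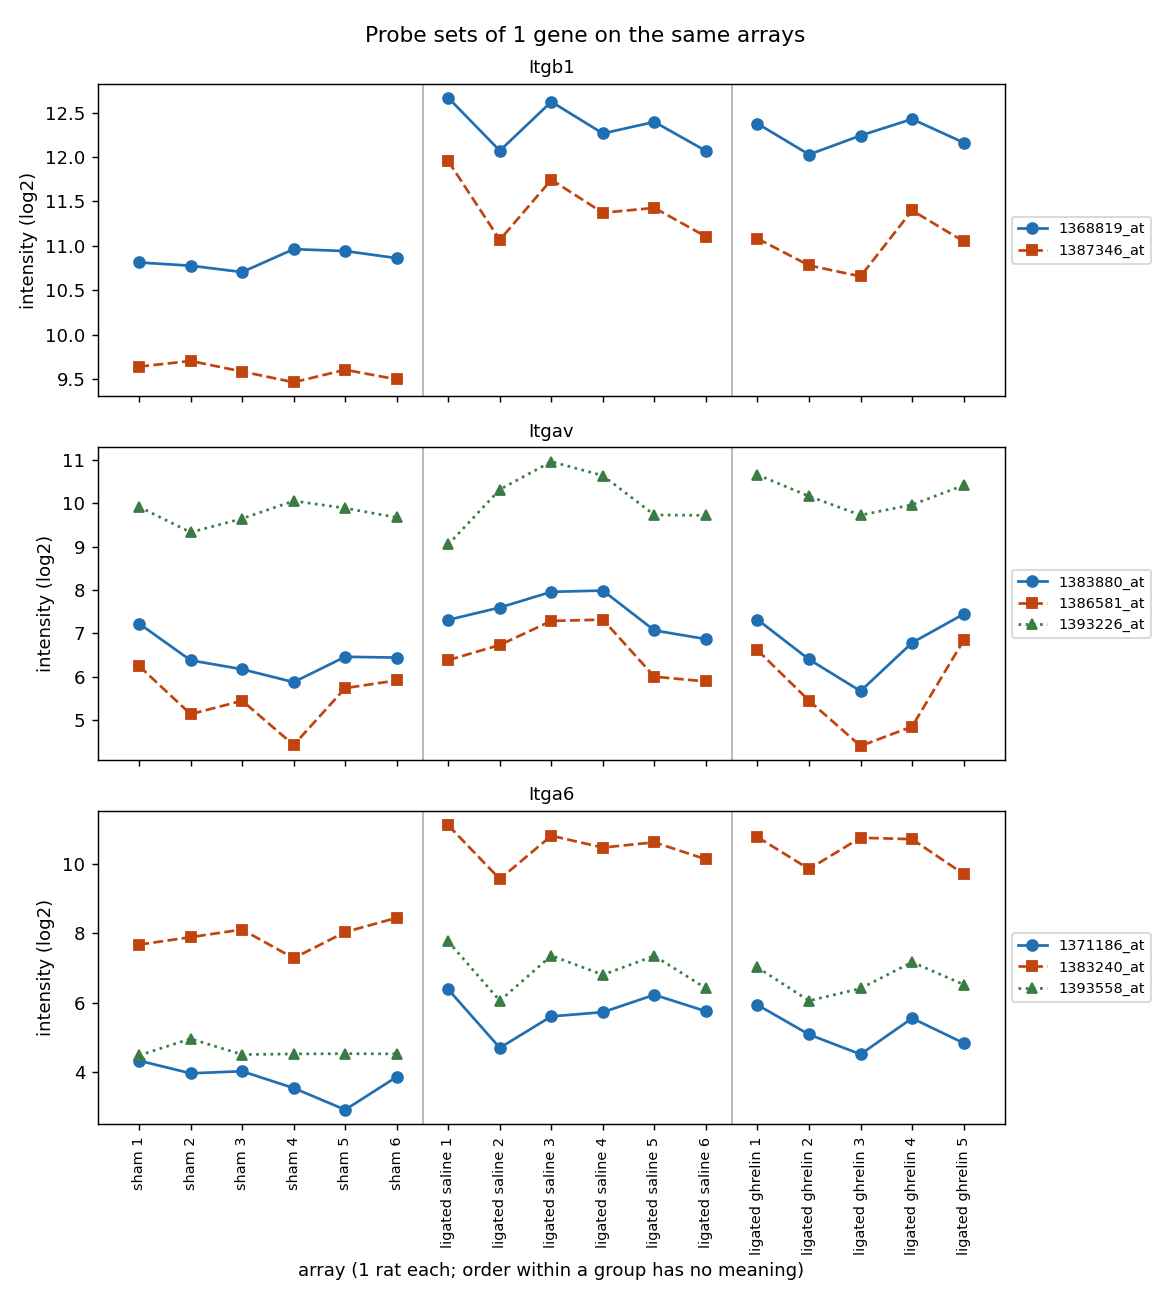
Log2 intensity (y axis) of each kept probe set of Itgb1, Itgav and Itga6 on each of the 17 arrays (x axis), with lines joining the points of 1 probe set within a group only to guide the eye, since arrays of a group have no order. The Itgb1 and Itga6 probe sets were higher in ligated than in sham rats throughout, whereas the Itgav probe set 1393226_at ran apart from the other 2.

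The αv chain, encoded by Itgav, joins β1, β3, β5, β6 or β8 in receptors of RGD-bearing ligands such as fibronectin, vitronectin and latent TGF-β. Its 3 probe sets gave different answers. The 2 dimmer ones rose with ligation: 1383880_at read 5.87, 6.41 and 7.22 (lowest, median, highest) in sham and 6.87, 7.45 and 7.99 in ligated saline rats, a change of 1.04 ± 0.29 (2.06-fold, adjusted p 0.00565). The probe set 1386581_at read 4.42, 5.59 and 6.24 in sham and 5.89, 6.56 and 7.32 in ligated saline rats, a change of 1.12 ± 0.42 (2.17-fold, adjusted p 0.0285). The brightest, 1393226_at, read 9.33, 9.78 and 10.06 in sham and 9.05, 10.03 and 10.97 in ligated saline rats, a change of 0.32 ± 0.26 (95% interval -0.237 to 0.875, adjusted p 0.304). Sham and ligated saline rats overlapped in all 3.

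The call for 1386581_at did not hold without sham replicate 2 (adjusted p 0.0551), without sham replicate 4 (0.0712), without ligated saline replicate 3 (0.0656) or without ligated saline replicate 4 (0.0645), all by limma. It was also lost under quantile normalization (0.78, adjusted p 0.108), with array medians set equal (0.93, adjusted p 0.06) and with the RNA integrity covariate (0.85, adjusted p 0.0825). In ligated ghrelin rats, 1383880_at read 7.32, 6.40, 5.67, 6.78 and 7.44, and 1386581_at read 6.61, 5.45, 4.40, 4.85 and 6.83, which spans the sham values. The ghrelin changes were -0.74 ± 0.31 (95% interval -1.4 to -0.0913, adjusted p 0.178) and -0.97 ± 0.44 (-1.9 to -0.0456, adjusted p 0.215), and neither passed. The third probe set differed by 0.12 ± 0.28 (adjusted p 0.843). Set against 1393226_at on the same arrays, 1383880_at moved by 0.722 with ligation (exact permutation p 0.0195, adjusted 0.052) and by -0.859 with ghrelin (exact permutation p 0.00649, adjusted 0.0346). For 1386581_at the same differences were 0.8 (exact permutation p 0.0152, adjusted 0.0486) and -1.09 (exact permutation p 0.013, adjusted 0.0486). These adjusted values passed 0.05 in some leave-one-out runs, reaching 0.11. Which transcripts of Itgav each probe set reads was not tested.

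Of the β chains that join αv, Itgb6 had the largest change of any member. Its product forms αvβ6, an epithelial receptor of fibronectin and of latent TGF-β. In sham rats Itgb6 read 3.55, 3.76 and 4.06 (lowest, median, highest), near the filter level of 3.95, with 3 of 6 arrays above it. Ligated saline rats read 8.30, 9.63 and 10.61, and the ligated ghrelin rats read 9.46, 9.13, 9.51, 9.91 and 8.91. Every ligated rat was more than 4 log2 units above every sham rat. The ligation change was 5.81 ± 0.32 (56.2-fold, adjusted p 5.71e-10), and 48.9-fold when sham values under the filter level are raised to it. Ligated ghrelin and ligated saline rats differed by -0.21 ± 0.34 with an interval from -0.927 to 0.507 (adjusted p 0.761), so a change of up to 0.93 log2 units downward or 0.51 upward lies within the error.

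Itgb5 encodes the β5 chain of αvβ5, a receptor of vitronectin. Its brighter probe set (1398358_a_at) read 8.61, 8.86 and 9.19 (lowest, median, highest) in sham rats, 9.12, 9.44 and 9.58 in ligated saline rats, and 9.32, 9.08, 9.03, 9.31 and 9.21 in ligated ghrelin rats. The highest sham rat overlapped the ligated groups. With ligation it rose by 0.54 ± 0.10 (1.45-fold, adjusted p 0.000199). The dimmer probe set (1370802_at) changed by 0.44 ± 0.18 (1.35-fold, adjusted p 0.0428), but this call was lost in 12 of 20 alternatives, among them the removal of any of 8 of the 12 arrays (sham replicates 1, 3, 5 and 6 and ligated saline replicates 1, 2, 3 and 5, adjusted p 0.056 to 0.107). Under quantile normalization its change was 0.13 (adjusted p 0.536). With ghrelin, the probe sets differed by -0.21 ± 0.11 (adjusted p 0.268) and -0.07 ± 0.19 (adjusted p 0.86).

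The collagen receptor chain α1, encoded by Itga1, pairs with β1 and is found on stellate, endothelial and other cells of the liver. It read 9.11, 9.97 and 10.25 (lowest, median, highest) in sham rats, 9.46, 9.61 and 10.48 in ligated saline rats, and 9.71, 10.16, 10.12, 10.24 and 10.11 in ligated ghrelin rats. All 3 groups overlapped. The ligation change was 0.006 ± 0.217 with a 95% interval from -0.452 to 0.464 (adjusted p 0.983), and the ghrelin change was 0.26 ± 0.23 with an interval from -0.222 to 0.739 (adjusted p 0.534). Its partner Itgb1 rose with ligation, as given above.

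The laminin receptor α6β4 anchors epithelial cells to the basement membrane through hemidesmosomes, and α6 also pairs with β1. Itga6 rose in all of its kept probe sets. The brightest (1383240_at) read 7.29, 7.97 and 8.45 (lowest, median, highest) in sham and 9.56, 10.54 and 11.11 in ligated saline rats, and 10.77, 9.85, 10.75, 10.71 and 9.71 in ligated ghrelin rats. Every ligated rat lay above every sham rat. With ligation the change was 2.54 ± 0.27 (5.83-fold, adjusted p 4.99e-07) for this probe set, 2.37 ± 0.25 (5.16-fold, adjusted p 6.55e-07) for 1393558_at and 1.96 ± 0.30 (adjusted p 2.51e-05) for 1371186_at. The last was above the filter level on 3 of 6 sham arrays. None of the differences in change between these probe sets passed the exact permutation test after adjustment.

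Itgb4, which encodes the β4 chain, rose too. It read 5.71, 6.11 and 6.60 in sham rats and 6.60, 6.91 and 7.74 in ligated saline rats (lowest, median, highest), and 7.38, 6.73, 7.32, 7.75 and 6.79 in ligated ghrelin rats. The lowest ligated saline rat stood just above the highest sham rat (6.6028 against 6.5961). With ligation Itgb4 rose by 0.86 ± 0.21 (1.82-fold, adjusted p 0.00223). With ghrelin, Itga6 (1383240_at) differed by -0.09 ± 0.28 (95% interval -0.68 to 0.497, adjusted p 0.88) and Itgb4 by 0.17 ± 0.22 (-0.308 to 0.639, adjusted p 0.708).

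**Figure D3:**
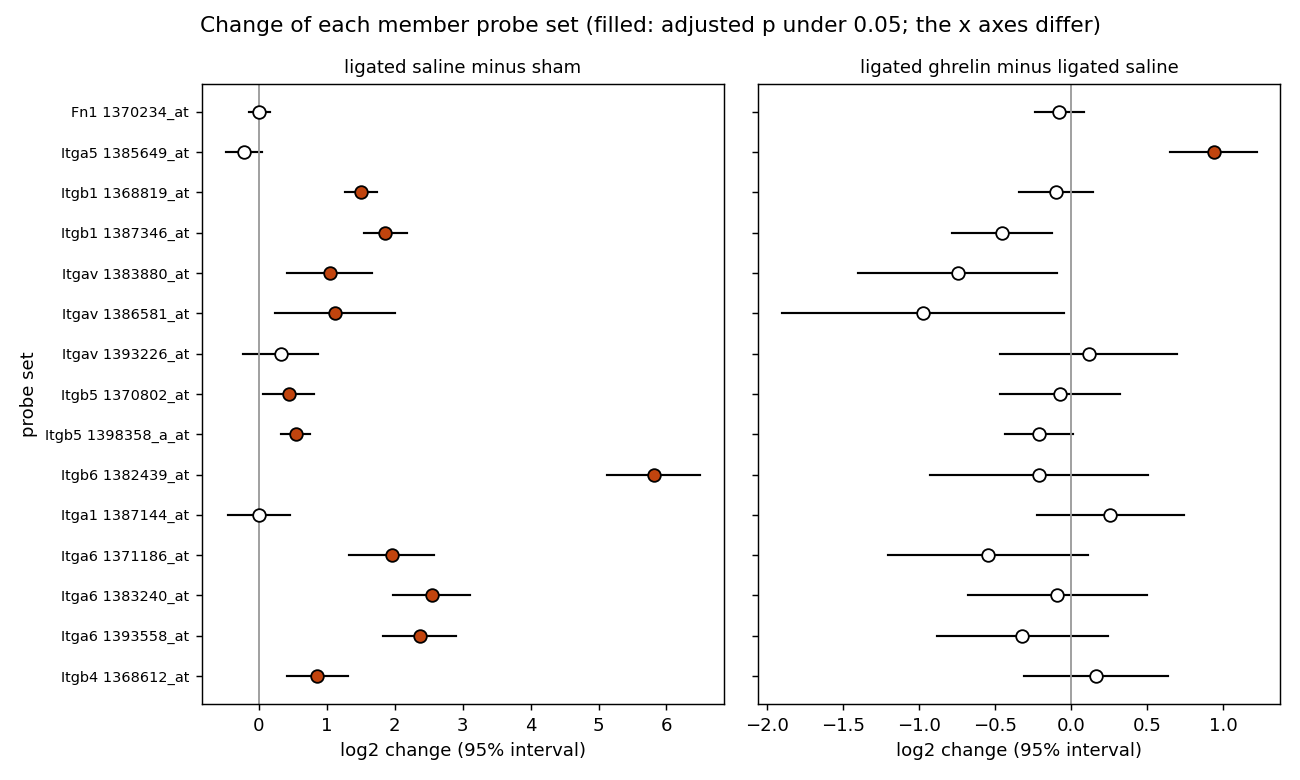
Log2 change (x axis, with 95% interval) of each of the 15 kept probe sets (y axis), for ligated saline minus sham in the left panel and ligated ghrelin minus ligated saline in the right panel, with filled points at an adjusted p under 0.05. The x axes of the panels differ. Ligation changes ran up to 5.81 for Itgb6, and Itga5 was the filled point in the ghrelin panel at 0.94.

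Set against sham, the ligated ghrelin rats had 9 of 15 member probe sets higher and none lower, where 29.9% of all probe sets were higher, 23.5% lower and 53.5% called. This comparison shares its sham arrays with the ligation comparison and its ghrelin arrays with the ghrelin comparison, so the values stand side by side and do not repeat each other. The groups did not overlap for 8 probe sets, all of them higher, against 20.7% of all probe sets in that direction. Itgb6 was 5.60 ± 0.34 log2 units higher (adjusted p 2.55e-09), Itga6 (1383240_at) 2.45 higher (adjusted p 2.16e-06), Itgb1 (1368819_at) 1.40 ± 0.12 higher (adjusted p 6.86e-08) and Itgb4 1.03 ± 0.22 higher (adjusted p 0.00106). For Itgav the 3 probe sets differed from sham by 0.30, 0.15 and 0.43 (adjusted p 0.434, 0.799 and 0.196), and none was called. Itgb5 was called in 1398358_a_at at 0.33 ± 0.11 (adjusted p 0.0142), which was 0.21 (adjusted p 0.0751) with array medians set equal.

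Other integrin chains and the proteins around these receptors were read from lists drawn up for this system. Of 7 genes measured on the list of other matrix-binding integrins, 4 were higher with ligation, 2 lower and 1 not called. Over all genes, 37.5% were higher, 27.2% lower and 64.7% called in all. Among the 4 was Itgbl1 (1.42 ± 0.38, adjusted p 0.0039 by limma), which encodes an integrin β-like protein and not a receptor chain. Itga8, whose product pairs with β1 and binds fibronectin and nephronectin, rose by a fitted 3.81 ± 0.31 (adjusted p 3.7e-08). It was above the filter level on 1 of 6 sham arrays, and the change was 3.23 with values under that level raised to it. Itga9, another partner of β1, rose by 1.42 ± 0.21 (adjusted p 2.33e-05). The 2 that fell were Itga7, a laminin receptor chain known from muscle, at -1.37 ± 0.11 (adjusted p 4.59e-08), and Itga2b, the platelet chain, at -0.63 ± 0.18 (adjusted p 0.00546). Itga7 was below the filter level on all ligated arrays, so its fall is given as at least 1.94-fold. Of 5 leukocyte chains 4 were higher, 1 was not called and none was lower, with Itgax, the CD11c chain of myeloid cells, at 1.93 ± 0.23 and its partner Itgb2 at 1.21 ± 0.16.

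Proteins of integrin adhesion sites moved mostly upward with ligation. Their list holds adaptors that tie integrins to actin, and also signalling and membrane proteins such as Src, Cd151, Cav1 and Sdc4. Of 27 measured, 21 were higher, 1 lower and 5 not called, with a median change of 0.75 against 0.07 over all genes. Over all genes, 37.5% were higher with ligation, 27.2% lower and 64.7% called. The filamin Flna, which crosslinks actin and binds β chains, rose by 2.98 ± 0.20 (adjusted p 4.7e-09). The tensin Tns3 rose by 2.00 ± 0.17 (adjusted p 6.84e-08), and the kindlin of blood cells, Fermt3, by 1.75 ± 0.16 (adjusted p 1.1e-07). The scaffold Bcar1 (p130Cas) was the member that fell, by 0.94 ± 0.12 (adjusted p 5.57e-06). The kinases Ptk2 (focal adhesion kinase) and Ilk changed by 0.17 ± 0.10 and 0.14 ± 0.07 and were not called (adjusted p 0.138 and 0.0712). With ghrelin, none of the 27 was called, beside 2.34% of all genes (1.76% higher and 0.585% lower).

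Of 10 other RGD-bearing or αv-binding ligands measured, 8 rose with ligation, 1 fell and 1 was not called, with a median of 2.83, or 2.56 with values under the filter level raised to it. Over all genes, 37.5% were higher and 64.7% called. Latent TGF-β3 (Tgfb3), below the filter level in all sham rats, was at least 9.66-fold higher (adjusted p 1.17e-08). Fibrillin 1 (Fbn1) rose by 3.57 ± 0.26 (adjusted p 9.6e-09) and Mfge8, which bridges dying cells to αv integrins, by 2.09 ± 0.15 (adjusted p 6.07e-09). Vitronectin (Vtn), like fibronectin a plasma protein made by hepatocytes, fell by 0.43 ± 0.08 (adjusted p 0.000196). Of 15 collagen, laminin and hemidesmosome genes 14 rose and 1 fell, with a median of 2.5. The laminin α5 chain Lama5, also below the filter level in all sham rats, was at least 25.4-fold higher (adjusted p 2.33e-10). Col1a1 rose by 4.63 ± 0.29 (adjusted p 2.06e-09) and Col3a1 by 2.50 ± 0.14 (adjusted p 5.47e-10). Lama3 fell by 1.49 ± 0.26 (adjusted p 9.49e-05).

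A list of genes that assemble, crosslink or cut the fibronectin matrix also held the splicing factors Srsf1 and Srsf5. Of its 15 measured genes 11 rose, 2 were lower and 2 were not called, with Srsf1 (0.40) and Srsf5 (0.38) among those that rose. The median was 1.39 (1.17 with values under the filter level raised to it), against 0.07 over all genes. Over all genes, 37.5% were higher, 27.2% lower and 64.7% called. The crosslinking oxidase Loxl1 was above the filter level on 1 of 6 sham arrays and rose by a fitted 6.89 ± 0.30 (adjusted p 4.58e-11), or 6.11 with dim values raised to that level. The gelatinase Mmp2 rose by 3.95 ± 0.24 (adjusted p 1.63e-09) and Col5a1 by 2.44 ± 0.21 (adjusted p 5.11e-08). The proteoglycan syndecan 2 (Sdc2) fell by 0.95 ± 0.10 (adjusted p 3.67e-07), and the protease Furin, which cleaves α chains to their mature form, fell by 0.57 ± 0.17 (adjusted p 0.00727). Syndecan 4 (Sdc4), a co-receptor of α5β1 for fibronectin, changed by 0.15 ± 0.11 and was not called (adjusted p 0.239).

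**Figure D4:**
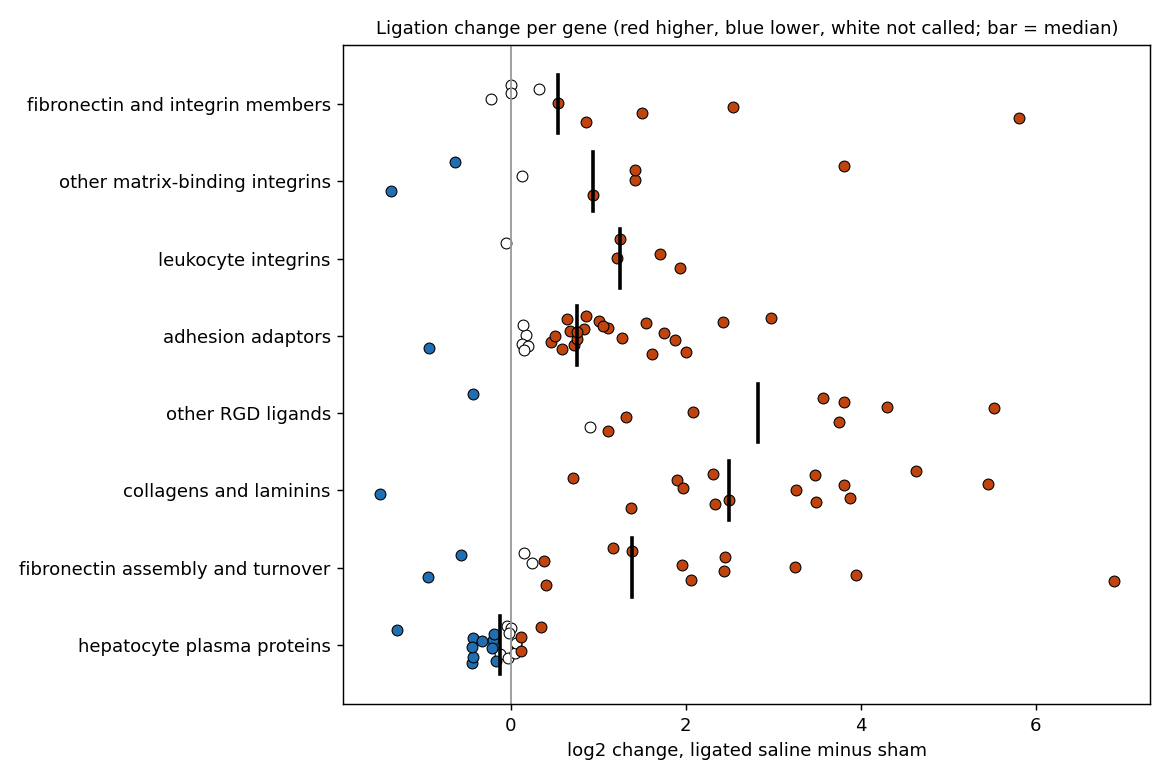
Log2 change with ligation (x axis, ligated saline minus sham) of each gene by its brightest probe set, for the 9 measured members and 7 lists of related genes (y axis). Red points were higher and blue points lower at an adjusted p under 0.05, white points were not called, and bars mark medians, which ran from -0.13 for hepatocyte plasma proteins to 2.83 for other RGD ligands.

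Of the 158 genes measured on all lists, cell type markers included, 3 were called with ghrelin (1.9%, beside 2.34% of all genes), all lower than in ligated saline rats. Plaur, the urokinase receptor that binds integrins, lay below the filter level on all ligated ghrelin arrays and was at least 2.1-fold lower (adjusted p 0.0127). Col3a1 changed by -0.68 ± 0.15 (adjusted p 0.0342), and the pericyte gene Rgs5, from the stellate cell markers, by -0.70 ± 0.16 (adjusted p 0.0389). These 2 calls held in 10 and 8 of 19 alternatives, with adjusted p up to 0.0977 and 0.109. Among the arrays whose removal ended both calls, ligated ghrelin replicate 2 gave these highest values, and the others were ligated saline replicates 1, 3 and 5 and ligated ghrelin replicates 1 and 5. The Rgs5 call was also lost without ligated saline replicate 6 or ligated ghrelin replicate 3. The median change with ghrelin was lowest for stellate cell and myofibroblast markers (-0.585, 2 of 15 called) and lymphocyte markers (-0.495, none of 5 called). It was highest for neutrophil markers (0.433, none of 4 called). For the other RGD ligands it was -0.37, for collagens and laminins -0.43 and for the list with the adaptors -0.15. Plasma proteins of hepatocytes had a median of 0.02, against 0.01 over all genes.

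Markers of several liver cell types moved with ligation. All 10 measured cholangiocyte markers rose, with a median of 4.62 (4.18 with values under the filter level raised to it), where 37.5% of all genes were higher, 27.2% lower and 64.7% called, and their summed intensity was 860.6 to 1184 in sham, 7405 to 22770 in ligated saline and 9231 to 14450 in ligated ghrelin rats. The chloride channel Cftr, the secretin receptor Sctr and Cldn4 were below the filter level in all sham rats. Of 15 markers of stellate cells and myofibroblasts 14 rose and Lrat fell, and their sum went from 4252 to 5866 in sham rats to 21510 to 44360 in ligated saline and 18240 to 24630 in ligated ghrelin rats. Thy1 was below the filter level in sham rats. The surface marker Cd24, above the filter level on 3 of 6 sham arrays, rose by a fitted 7.01 log2 units, and vimentin (Vim) by 3.54. Lrat, which stores retinol in quiescent stellate cells, changed by -0.62.

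Of the other types, macrophage markers rose in 9 of 11 cases (sums of 13240 to 21880, 30270 to 37250 and 22500 to 34010 in the same order). Neutrophil markers rose in 4 of 4 (253.4 to 616.1, 1747 to 6602 and 3682 to 7620) and lymphocyte markers in 3 of 5 (435.6 to 957.7, 1266 to 2310 and 873.1 to 1487). Most of the neutrophil sum came from S100a8 and S100a9, at means of 10.32 and 11.3 in ligated saline rats. The neutrophil marker Csf3r was below the filter level in all sham rats, and Ncf1 rose by 0.37 with groups that overlapped. Over all genes, 37.5% were higher, 27.2% lower and 64.7% called. Ptprc was the brightest gene of the lymphocyte list, at a mean of 10.41 in ligated saline rats, and carried most of its sum. It encodes CD45, a protein of leukocytes in general, so this sum does not read lymphocytes alone. The lymphocyte marker Cd3e changed by 0.14 and was not called (adjusted p 0.686 by limma). Endothelial markers rose in 6 of 13 cases and fell in 1. The share that rose lay near that over all genes, and the share that fell lay below it. Their sums of 5434 to 6861, 5599 to 7056 and 4721 to 7187 overlapped. The endothelial receptor Kdr (-0.82), the monocyte marker Cd14 (-0.52) and the perforin gene Prf1 (-1.40) were the markers that fell in their lists. The part of these cell types in the rise of Itgb1, Itgb6, Itga6 and Itgb4 was not tested. With ghrelin, none of the markers of cholangiocytes, endothelial cells, macrophages, neutrophils, lymphocytes or hepatocytes was called, and 2 of the 15 stellate cell markers were lower.

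Within groups, the members varied from rat to rat in different company. Each was read here through its brightest probe set, for Itgav 1393226_at, which ran apart from the other 2 Itgav probe sets. The Pearson correlation of deviations from the group means over the 17 arrays was 0.815 between Itgb1 and Itgb6, 0.736 between Itgb1 and Itgb4, 0.663 between Itgb1 and Itga6 and 0.624 between Itgb6 and Itga6. For Fn1 the correlations with the other members ran from -0.318 to 0.293. Deviations were pooled over the groups without scaling, so a group with a wider spread weighs more. For Itgb6 the SD was 0.912 in ligated saline, 0.258 in sham and 0.383 in ligated ghrelin rats. Rats share their array with all genes here, so these values are a description. The genes named next are the 3 with the highest correlation per member among the 9736 genes, members left out. A search over so many genes gives high values by chance too, and the level that chance reaches was not tested. The genes most like each member by the same measure were Dcdc2 (0.954), Epb41l4a (0.948) and Tgfb2 (0.926) for Itgb6, Dzip1l (0.949), Fads3 (0.94) and Rab25 (0.914) for Itgb1, and Magoh (0.916), Arglu1 (0.863) and Heatr5a (0.863) for Itga6. For Itgb4 they were Tfrc (0.891), Igf1r (0.849) and Cbx6 (0.827), and for Itga1 they were Tk1 (0.951), Arl6ip1 (0.823) and Cdc20 (0.814). Itga5 ran closest to Anxa6 (0.838), Ambra1 (0.812) and Tmem250 (0.797). The nearest genes were Arhgap8 (0.872), Mib2 (0.802) and Ndufb10 (0.78) for Itgav, Pms2 (0.824), Nfkb1 (0.816) and Pcp4l1 (0.809) for Itgb5, and Setd5 (0.785), Cbl (0.782) and Rnf213 (0.775) for Fn1.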

How the data were processed

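Liver RNA of 17 rats (6 sham, 6 ligated saline, 5 ligated ghrelin) was measured with 1 Affymetrix Rat Genome 230 2.0 array each. Each deposited column gives the intensity of every probe set on 1 array after GCRMA, which the authors ran per the submitters' processing notes. For its settings and version: not given in the sources used here. They were on the linear scale, with a lowest value of 2.14, and were converted to log2 without a pseudocount. Precision is limited by how many arrays there are. Of the probe sets that are not controls, 20826 have 1 gene symbol in the platform annotation, 436 several and 9780 none, and all 17 member probe sets matched RefSeq by gene ID, which checks the annotated name and not the probe sequences. List genes below the filter level on all arrays of a group are given a fold bound against that level.

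Probe sets were kept at an intensity above the median of all deposited values (15.5) on at least 5 arrays. Group means of all 17 arrays were fitted in 1 model with limma 3.58.1 in R 4.3.3 (14 residual and 2.54 prior degrees of freedom), without covariates since the labels name no batch. Calls used a Benjamini-Hochberg adjusted p under 0.05 over all kept probe sets. Changes are given as log2 change ± SE. P-values measure the spread between the rats as the labels give them. A gene of a list was read through its kept probe set of highest mean. Probe sets of 1 gene were compared by exact two-sided permutation of the per-array difference between them. The fit was tested on simulated data.

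All members are named, and from each of 14 lists the 3 called genes with the lowest p in the ligation comparison, genes called against the direction of most of the list, and genes called with ghrelin (each where 3 or fewer), plus the 3 genes most correlated with each member. Ptk2, Ilk, Sdc4, Srsf1 and Srsf5, and the genes of lists of other cell types, are named by role or by signal below the filter level. Itgbl1, Src, Cd151 and Cav1 are named by role. Not every gene that the rule picks is printed. The members and lists were chosen with earlier results of these data known. Alternatives were no filter or a stricter one (above 6 on the log2 scale), quantile normalization, equal array medians, only the 2 groups compared, a trended robust variance, array weights, the mean of a gene's probe sets, leaving out each array, and a covariate for RNA integrity.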

Additional observations from a re-analysis of the deposited data

Results flagged for a closer look

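Of 45 sets of values examined (15 member probe sets in each of 3 groups), 3 held a rat that stood apart from the rest of its group by Dixon's limit, which chance alone exceeds in about 1 of 20 groups. Ligated ghrelin replicate 2 read 6.47 for Itga5, against 6.85 for the next lowest of its group (gap over range 0.774, limit 0.71). That rat was the lowest of its group and still above every sham and ligated saline rat. Ligated ghrelin replicate 1 read 9.71 for Itga1, with the next at 10.1 (gap over range 0.755, limit 0.71). Sham replicate 2 read 4.97 for Itga6 in 1393558_at, with the next highest at 4.54 (gap over range 0.901, limit 0.625), and it lay below all ligated rats.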

How the results depend on the processing

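The count of member genes called with ligation by their brightest probe set, in either direction, was 5 and stayed between 5 and 7. That of probe sets was 11 and ran from 9 to 11. All calls of the main fit were higher, but with array medians set equal Itga5 (-0.41) and Fn1 (-0.182) were called lower. Under quantile normalization Itga5 (-0.568) was called lower. Itga5 was the member called with ghrelin in every alternative. Counts over all probe sets moved more. Without the filter, 22230 probe sets were called with ligation (9825 with it) and 19914 for ligation and ghrelin together (8534 with it). The count for ghrelin was 355, and became 154 without the filter, 541 under quantile normalization, 611 with array medians set equal, 118 with only the arrays of the 2 groups, 44 with the beta-actin 3' minus 5' covariate, which was chosen after seeing the data, and 35 to 652 when 1 array was left out (35 without ligated ghrelin replicate 2, 652 without ligated saline replicate 4). The count of list genes called with ghrelin was 3, and became 1 without the filter, with only the 2 groups or with the covariate, 6 with array medians set equal, and 1 to 11 when 1 array was left out (11 without ligated saline replicate 4). Pairs of probe sets of 1 gene that differed in change numbered 5, and 0 to 6 when 1 array was left out. They numbered 0 without any of ligated saline replicates 1, 2, 4, 5 and 6, where fewer arrays raise the smallest p the exact test allows.

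Of the called probe sets, 55.7% were higher with ligation, but 42% under quantile normalization, 39% with array medians set equal and 27.1% without the filter. For ligation and ghrelin together these shares were 56%, 43.8%, 43.1% and 25.7%, and for ghrelin 59.2% and, with array medians set equal, 80.4%. Signs that turned belonged to small changes. Fn1 with ligation was -0.182 with array medians set equal, -0.0143 with array weights and -0.0336 to 0.0415 when 1 array was left out. Itga1 with ligation was -0.00386 under quantile normalization, -0.183 with array medians set equal, -0.0607 with array weights and -0.133 to 0.0945 when 1 array was left out. With ghrelin, Itgav (1393226_at) ran from -0.0884 to 0.294, Itgb5 (1370802_at) from -0.199 to 0.0247 and Itga6 (1383240_at) from -0.269 to 0.0712 when 1 array was left out, the last being 0.0468 with array weights. For ligation and ghrelin together, Itgav (1386581_at) was -0.119 under quantile normalization and -0.156 to 0.453 when 1 array was left out. Hpx (-0.0686) and Hp (-0.0711) turned with array medians set equal, and Fn1 for ligation and ghrelin together was -0.191 there (adjusted p 0.0411). The cause of these shifts was not tested. No paired analysis was possible because no title number occurs in more than 1 group.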
